A study of Mus musculus with 24 samples.

Results

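The Cdkn1c-Phlda2 imprinted domain is a cluster of genes on mouse chromosome 7, followed here through 8 members: Cdkn1c, Phlda2, Slc22a18, Ascl2, Tssc4, Cd81, Nap1l4 and Osbpl5. The members were chosen with earlier results of these data known. Every array probe whose gene name, or whose accession's current symbol, was one of these 8 was taken, whatever its measured values. This gave 12 probes of 41174 on the array and 8 of 28599 gene names, so all 8 members were present. In the array's mm8 coordinates the 12 probes lie between chr7:142777924 (Ascl2) and chr7:143498294 (Osbpl5).

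RNA from brain and liver of newborn female mice was hybridised to 24 single-colour Agilent arrays, 4 for each of 3 groups in each tissue. The G20 group was made of pups from the 20th generation of serial cloning from cumulus cells, that is, clones made from clones. The CC group was made of clones whose donor nuclei came from cumulus cells, the cells that surround the egg. The NC group held control pups conceived by intracytoplasmic sperm injection (ICSI). All 3 groups shared a mixed background, a cross of C57BL/6 and DBA2 mice crossed in turn to 129/Sv. The NC and CC labels number 4 pups each, with brain and liver from the same pup, whereas all G20 labels carry 1 pup number, so p-values that involve G20 measure the spread between 4 arrays that may or may not be 4 animals.

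Imprinted genes are transcribed mainly from the copy inherited from 1 parent. Most genes of this domain are expressed from the maternal copy, and the long non-coding RNA Kcnq1ot1, which runs antisense through Kcnq1, silences them on the paternal copy. Several of them, Ascl2, Tssc4, Cd81 and Osbpl5 among them, are known as imprinted chiefly in the placenta, while Cdkn1c, Phlda2 and Slc22a18 are imprinted in the embryo as well. Cdkn1c encodes the cyclin-dependent kinase inhibitor p57Kip2, which holds cells out of division, and Phlda2 encodes a small pleckstrin-homology protein that restrains placental growth. In bulk tissue, fewer cells that express a gene and less of its RNA in each cell cannot be told apart, and none of these measurements separates the parental copies.

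The promoters of the neighbours Slc22a18 and Phlda2 are shown because these members had the widest gap between the tissues and yet differ in base composition. Of the 8 members, 6 had a RefSeq promoter entry (assembly GRCm38.p6), and Cdkn1c and Nap1l4 are named only. Each sequence gives the 250 bases before the annotated start, 5′ to 3′ along the gene, with every CG dinucleotide in capitals. Phlda2 lies on the minus strand at chr7:143502525-143502774 of GRCm38.p6, and Slc22a18 on the plus strand at chr7:143473539-143473788.
Phlda2 promoter: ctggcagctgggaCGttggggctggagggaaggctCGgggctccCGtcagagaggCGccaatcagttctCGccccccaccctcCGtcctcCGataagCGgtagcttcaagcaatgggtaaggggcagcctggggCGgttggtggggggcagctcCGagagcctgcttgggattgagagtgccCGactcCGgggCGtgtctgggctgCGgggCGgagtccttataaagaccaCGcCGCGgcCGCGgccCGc
Slc22a18 promoter: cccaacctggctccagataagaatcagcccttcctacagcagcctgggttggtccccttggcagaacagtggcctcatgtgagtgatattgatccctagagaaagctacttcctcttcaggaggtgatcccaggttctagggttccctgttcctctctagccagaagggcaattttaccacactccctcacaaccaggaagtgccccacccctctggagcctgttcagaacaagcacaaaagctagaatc
The Phlda2 window held 21 CG dinucleotides and 68.8% G or C, and 16.3% of 32851 mouse promoter windows of this length held as many. The Slc22a18 window held 0 CG at 52.8% G or C, whereas 92.1% of all windows held at least 1 and their median was 6. On either strand the Phlda2 window held 1 TATAAA, 2 GGGCGG and 1 CCAAT, which occur in 12.4%, 32.7% and 33.8% of all windows. None of these 3 motifs was in the Slc22a18 window.

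Values are log2 signal minus the array's own 75th percentile, so a level of 0 is a spot as bright as that percentile and a difference of 1 is a doubling. After a filter on dim spots, 7 of the 8 members were tested in brain and all 8 in liver. Ascl2 was not well above background on any of the 12 brain arrays. No member spot was saturated. Hepatocyte and neuron markers sorted the tissues as labelled. The summed log2 level of the 6 neuron markers was 7.08 to 7.25 on the brain arrays and -1.98 to 1.10 on the liver arrays. The hepatocyte sum was 9.04 to 10.3 in liver and -1.77 to 1.54 in brain. Of the neuron markers 3 of 6 passed the filter in liver, and of the hepatocyte markers 3 of 5 in brain. Snap25 was not well above background on any liver array, nor Apoa1 and Apob on any brain array. Each group of a tissue had its own slide, so the effects of slide and group cannot be told apart. Both CC tissues were scanned in a session 221 days after the first, apart from NC and G20, which shared a session in each tissue. The G20 and NC brains were scanned 49 days after the G20 and NC livers, so in those groups tissue and session cannot be told apart, whereas the CC tissues shared 1 session.

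Between the tissues, Slc22a18 and Phlda2 were far lower in brain than in liver, and Osbpl5 was far higher. Slc22a18, an organic cation transporter-like membrane protein, read -3.42, -4.22, -3.81 and -3.61 in G20 brains, against 2.36, 2.54, 2.78 and 2.49 in G20 livers. It read -3.11, -3.43, -3.42 and -3.49 in CC brains, against 1.90, 2.16, 2.10 and 2.10 in CC livers. It read -3.62, -3.72, -3.95 and -3.54 in NC brains, against 2.34, 2.64, 2.54 and 2.55 in NC livers. Every brain array was below every liver array in all 3 groups, with signal 79.2-fold lower in G20, 43.0-fold lower in CC and 74.7-fold lower in NC brain. Its other, much dimmer probe was lower in brain by 13.998-fold in G20, at least 10.5-fold in CC and 10.7-fold in NC. All 8 members passed the test (limma, Benjamini-Hochberg adjusted p under 0.05) between the tissues in G20, 7 did in CC and all 8 in NC, which is read against 88.9%, 84.1% and 88.8% of all genes tested.

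Phlda2 was near the limit of detection in brain. In G20 brains it read -5.70, -6.15, -6.08 and -5.97, with 1 of 4 spots well above background. In CC brains it read -4.67, -4.64, -5.07 and -4.74, with 4 of 4 well above background, and in NC brains -6.80, -6.23, -6.37 and -6.09, with 2 of 4. Liver signal was well above background on all 12 arrays, and the fitted differences, brain minus liver, were -6.90 ± 0.31 in G20, -5.54 ± 0.31 in CC and -7.64 ± 0.31 in NC (log2, SE). Since so few G20 and NC brain spots were well above background, no order among the groups is read from these 3 differences.

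Osbpl5, an oxysterol-binding-protein relative that carries lipids between membranes, ran the other way. It read 3.14, 3.16, 3.07 and 3.09 in G20 brains, against 0.60, 0.40, 0.49 and 0.75 in G20 livers. In CC it read 3.77, 3.68, 3.66 and 3.47 in brain, against 0.72, 1.11, 0.82 and 0.56 in liver, and in NC 3.11, 2.90, 3.02 and 2.97 in brain, against 0.29, 0.23, 0.36 and 0.53 in liver. The tissues did not overlap in any group, and the gene was 5.87-fold, 7.18-fold and 6.28-fold higher in G20, CC and NC brain. Cdkn1c was lower in brain by 7.72-fold in G20, 3.23-fold in CC and 3.16-fold in NC. Ascl2, a basic helix-loop-helix factor of trophoblast and intestinal stem cells, was dim in both tissues and passed the filter only through G20 livers. It was at least 9.54-fold lower in G20 brain and at least 5.87-fold lower in NC brain, with each brain array set at the higher of the probe's own signal and the lowest signal that the array called well above background. In CC 1 of 4 liver spots was well above background and no fold is given. With normexp background correction brain minus liver was -0.73 in G20 (adjusted p = 0.288) and -0.63 in CC (adjusted p = 0.410), no longer called.

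For the other 3 members the direction between tissues turned with the scaling, and for Nap1l4 also with the probe. Cd81 (brain minus liver -0.94, -0.45 and -1.23 in G20, CC and NC), Tssc4 (-0.74, 0.07 and -0.40) and Nap1l4 (-0.43, 0.33 and -0.47) each had a difference of the opposite sign in at least 1 group under quantile normalization or in the authors' own processed values. Nap1l4's other probes were higher in brain, by 1.87 and 0.68 in NC and by 1.58 and 0.73 in G20. No tissue direction is read for these 3 members.

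**Figure D1:**
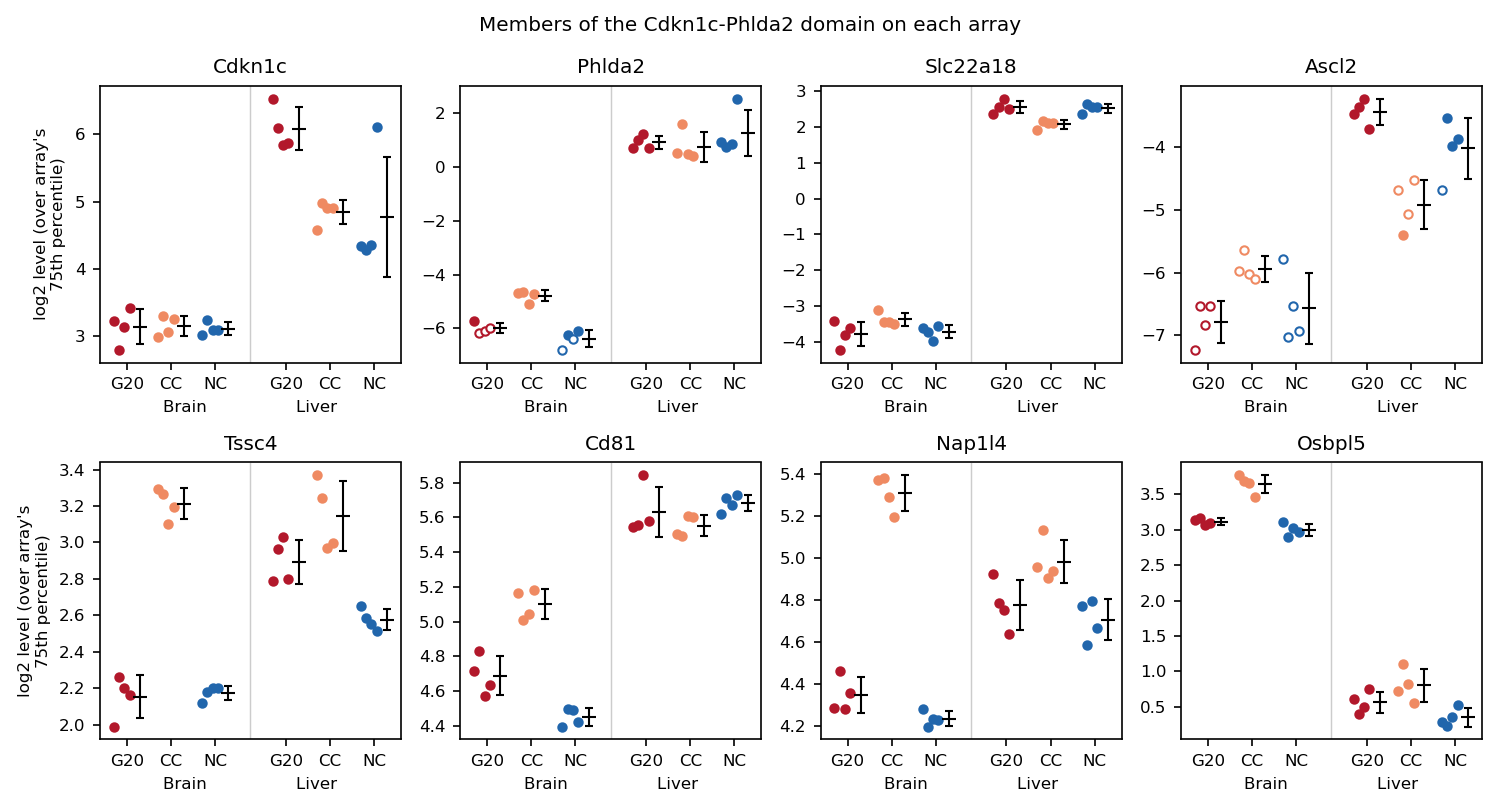
Levels of the 8 members on every array, as log2 signal over the array's 75th percentile (vertical axis), in brain and liver for G20, CC and NC; points are arrays, open where not well above background, and bars are group means ± SD (n = 4). Slc22a18 and Phlda2 lie lower in brain than in liver in all 3 groups, Osbpl5 lies higher in brain, and liver NC replicate 4 stands above the other NC livers for Cdkn1c and Phlda2.

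The main question of the design for this domain is whether its genes differ between 20th-generation clones and fertilised controls. In liver, Cdkn1c was higher in G20. It read 6.53, 6.09, 5.84 and 5.88 in G20 livers, 4.58, 4.99, 4.90 and 4.90 in CC livers, and 4.33, 4.28, 4.36 and 6.11 in NC livers. All 4 G20 livers lay above all 4 CC livers and above 3 of the 4 NC livers, while NC replicate 4 lay inside the G20 range. The G20 minus NC difference was 1.32 ± 0.35 (log2, SE), a 2.49-fold higher signal (limma, adjusted p = 0.0450). Cdkn1c was the 1 member of 8 called in this comparison, against 7.07% of all genes tested in either direction and 4.18% called higher. G20 livers also exceeded CC livers by 1.24 ± 0.35 (adjusted p = 0.0131), whereas CC minus NC was 0.07 ± 0.35 (adjusted p = 0.890).

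The Cdkn1c difference from NC sat close to the threshold. Its direction held in all 16 alternatives, which gave 1.15 to 1.86, and the call was lost in 11 of them (adjusted p 0.000402 to 0.117 over the 16). Without NC replicate 4 the difference was 1.76 (adjusted p = 0.000402), and CC minus NC then also passed, at 0.52 (adjusted p = 0.0289). It was lost without any 1 of NC replicates 1, 2 and 3 or of the 4 G20 livers (1.15 to 1.40, adjusted p 0.0660 to 0.117), and with the replicate number as a block its adjusted p was 0.0770.

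Whether cumulus-cell clones shared the high liver Cdkn1c depended on which of the deposited values were read. The authors' own processed values, in log2 of an intensity, were 15.19, 14.79, 14.55 and 14.69 in G20 livers, 14.55, 14.85, 14.84 and 14.73 in CC livers, and 13.03, 13.002, 13.08 and 14.73 in NC livers. There the CC livers lay in the G20 range and above 3 of the 4 NC livers, level with NC replicate 4. G20 minus NC was 1.34 (adjusted p = 0.0334), CC minus NC was 1.28 (adjusted p = 0.0332) and G20 minus CC was 0.06 (adjusted p = 1.000). On the 8 CC arrays the processed values departed from the scanner values by an SD of 0.627 to 0.657 (log2, over probes), and on the 16 G20 and NC arrays by 0.0103 to 0.0554, so the CC arrays had been changed probe by probe and the others rescaled. The G20 and NC livers shared 1 session but not a slide. Their difference was alike in both sets of values, which adds no support, since the values of those arrays were only rescaled.

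**Figure D2:**
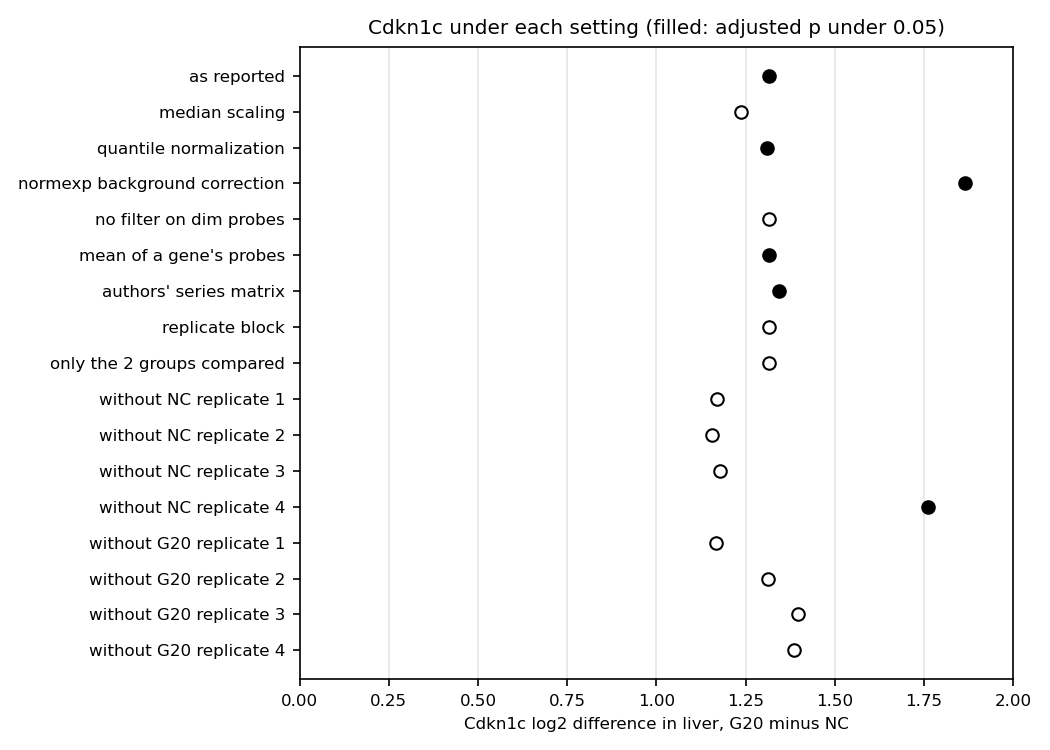
The liver Cdkn1c difference, G20 minus NC in log2 units (horizontal axis), in the fit as described and under each of 16 alternatives (rows); filled points passed an adjusted p of 0.05. The values run between 1.15 and 1.86 and stay above 0, and 11 alternatives do not pass.

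In brain, Cdkn1c did not move with the group. It read 3.22, 2.79, 3.13 and 3.42 in G20 brains, 2.99, 3.30, 3.07 and 3.26 in CC brains, and 3.01, 3.24, 3.09 and 3.09 in NC brains. The groups overlapped, and the G20 minus NC difference was 0.03 ± 0.12 (adjusted p = 0.918). The difference between the tissues' G20 effects, brain minus liver, was -1.29 ± 0.39 for Cdkn1c and missed the threshold (adjusted p = 0.0758). It passed without liver NC replicate 4 (-1.73, adjusted p = 0.000104) and in the authors' processed values (-1.36, adjusted p = 0.0468). Of 7 members, 0 passed this limma test of the difference between tissues, against 3.3% of genes, and 3 had an unadjusted p under 0.05 (Cdkn1c, Cd81 and Tssc4). Of all 15146 genes tested, 2815 had such an unadjusted p. For 1 other member, Cd81, the call depended on 1 array: it was 0.29 (adjusted p = 0.139), and 0.36 (adjusted p = 0.0470) without liver G20 replicate 3.

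Phlda2 in liver showed no such group difference, though it shared the high array with Cdkn1c. It read 0.72, 1.01, 1.23 and 0.73 in G20 livers, 0.54, 1.59, 0.47 and 0.43 in CC livers, and 0.93, 0.74, 0.86 and 2.55 in NC livers. NC replicate 4 was the highest of the 12 and CC replicate 2 the next, and all 3 groups overlapped. G20 minus NC was -0.35 ± 0.38 (adjusted p = 0.625) and CC minus NC -0.51 ± 0.38 (adjusted p = 0.311). Without NC replicate 4 these became 0.08 (adjusted p = 0.881) and -0.08 (adjusted p = 0.826). Phlda2's other probe, which overlaps the first by most of its length, read -1.22, -0.89, -0.78 and -1.08 in G20, -2.22, -1.07, -1.90 and -1.80 in CC, and -1.15, -1.48, -1.41 and 0.21 in NC livers, so the same 2 arrays stood highest within their groups.

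The pull of liver NC replicate 4 was not general to the domain. Slc22a18, between Cdkn1c and Phlda2 on the chromosome, read 2.55 on that array, inside the other NC livers. Over all genes, those were counted where 1 array stood more than 2-fold above the other 3 of its group and apart from them. Apart means that its gap to the nearest array made up most of the group's range, so other genes over 2-fold higher are not counted. NC replicate 4 had 46 such genes, among them Cdkn1c and Phlda2, and CC replicate 2 had 16. Such counts were not particular to these arrays: CC replicate 1 had 50 and G20 replicate 1 had 35, down to 6 on G20 replicate 4. The lists of NC replicate 4 and CC replicate 2 shared 4 genes, which are 8.7% of the first and 25% of the second: Lypd8, Tinag, CF584628 and Phlda2. The values of 2 of them, chosen after they were seen, follow. Tinag, a basement-membrane protein of kidney tubules, read -3.04, -3.35, -2.01 and -1.89 in G20, -4.44, -2.58, -4.40 and -4.53 in CC, and -4.23, -4.02, -4.38 and -2.00 in NC livers. CF584628, a transcript without a gene symbol, read 5.38, 5.57, 5.87 and 5.96 in G20, 4.198, 5.33, 4.02 and 4.05 in CC, and 4.30, 4.22, 4.15 and 6.12 in NC livers. In both, the 4 G20 livers and NC replicate 4 lay above the other 3 NC livers.

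**Figure D3:**
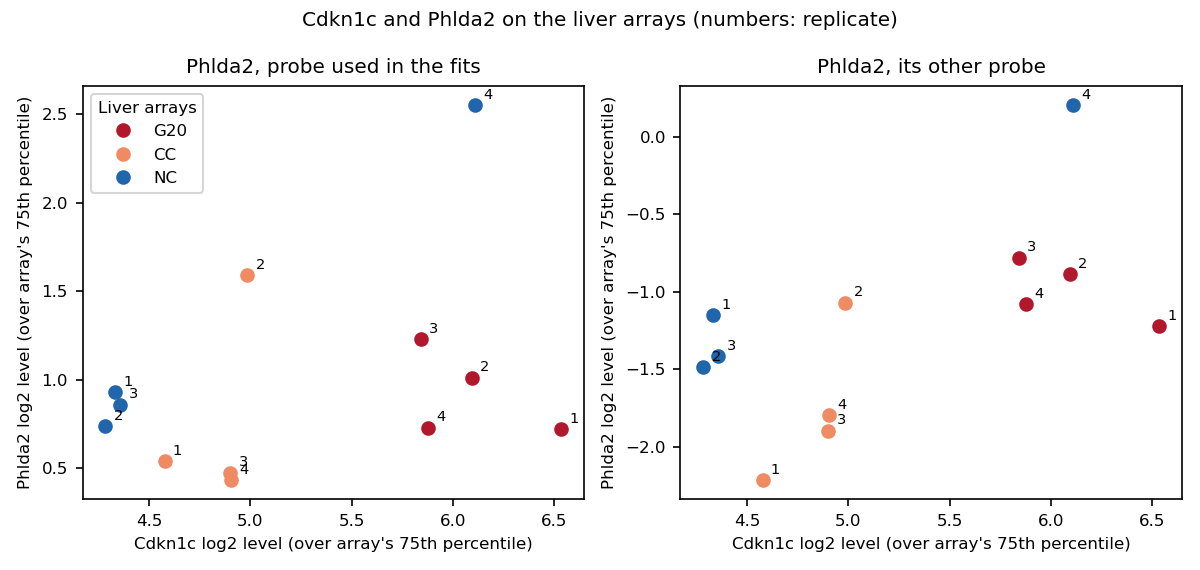
Liver levels of Cdkn1c (horizontal) against the Phlda2 probe used in the fits and its other probe (vertical), in log2 signal over the array's 75th percentile; each point is 1 of 12 arrays, coloured by group. NC replicate 4 lies at the top for Phlda2 and within the G20 range for Cdkn1c, and CC replicate 2 lies above the other CC livers for Phlda2.

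Markers of other cell types were set beside the liver result. Their counts at an unadjusted p under 0.05 between G20 and NC (limma) stand beside 3978 of all 16754 genes tested. The summed log2 level of the 5 muscle markers, of which 3 passed the filter, was -1.55, 0.15, 2.48 and 2.33 in G20 livers, 6.43, 4.07, -1.79 and -2.11 in CC livers, and -2.03, -2.06, -0.98 and 2.11 in NC livers. NC replicate 4 had the highest muscle sum of the NC livers and G20 replicate 1 the lowest of the G20 livers, at Cdkn1c levels of 6.11 and 6.53. CC replicate 1 had the highest muscle sum of the 12, at a Cdkn1c level of 4.58. Stellate cell and fibroblast markers summed to 5.56 to 5.75 in G20, 6.05 to 6.64 in CC and 5.84 to 6.06 in NC livers, with 0 of 6 called between G20 and NC (3 at an unadjusted p under 0.05). Mesothelium markers summed to 1.04 to 1.19 in G20 and 1.37 to 1.85 in NC livers, with Wt1 higher and Msln lower of 4 (4 at an unadjusted p under 0.05). Hepatocyte markers summed to 9.99 to 10.3 in G20 and 9.98 to 10.2 in NC livers, with Ttr lower of 5. Erythroid markers summed to 9.70 to 9.85 in G20 and 9.51 to 9.74 in NC livers, with 0 of 4 called (1 at an unadjusted p under 0.05). Cholangiocyte markers summed to 1.03 to 1.29 in G20 and 1.23 to 1.79 in NC livers, with Epcam lower of 4 (3 at an unadjusted p under 0.05). Of the endothelial markers Tie1 was lower of 5, and 0 of 4 macrophage markers were called (2 at an unadjusted p under 0.05). The part of the muscle, mesothelium, cholangiocyte, stellate and erythroid values in the Cdkn1c result was not tested.

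The remaining members did not pass between G20 and NC in liver. Tssc4, known in human cells as a factor of spliceosome assembly, read 2.79, 2.97, 3.03 and 2.80 in G20 livers and 2.65, 2.58, 2.55 and 2.52 in NC livers. Its groups did not overlap, and the difference of 0.32 ± 0.10 missed the threshold (adjusted p = 0.0842). Ascl2 read -3.47, -3.36, -3.22 and -3.70 in G20, with 4 of 4 spots well above background, and -4.69, -3.53, -3.98 and -3.86 in NC, with 3 of 4. The Ascl2 difference was 0.57 ± 0.24 (adjusted p = 0.177), and it turned to -1.24 (adjusted p = 0.0333) with normexp background correction. Osbpl5 differed by 0.21 ± 0.12, Nap1l4 by 0.07 ± 0.09, Slc22a18 by 0.03 ± 0.10 and Cd81 by -0.05 ± 0.08, none past the threshold. The members' median difference was 0.14, beside 0.03 over all genes tested.

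In brain, 0 of 7 members were called between G20 and NC by limma, against 1.75% of all genes tested. At an unadjusted p under 0.05 there were 2, Cd81 and Phlda2, beside 3630 of all 18803 genes tested. Cd81, a tetraspanin that organises receptors in the cell membrane, came closest. It read 4.71, 4.83, 4.57 and 4.64 in G20 brains and 4.40, 4.50, 4.49 and 4.42 in NC brains. All 4 G20 brains lay above all 4 NC brains, by 0.24 ± 0.07 (adjusted p = 0.119). Among brain markers, the summed astroglia and progenitor level was 5.90 to 6.1998 in G20 and 5.83 to 5.84 in NC brains, and the macrophage sum 0.53 to 0.78 in G20 and 0.97 to 1.10 in NC brains, both without overlap. Of these, 0 of 5 and 1 of 4 were called, C1qb, lower, and their part in the Cd81 values was not tested. Nap1l4, a histone chaperone, read 4.29, 4.47, 4.28 and 4.36 in G20 brains and 4.28, 4.1998, 4.24 and 4.23 in NC brains. The ranges nearly met without overlap (0.11 ± 0.07, adjusted p = 0.372), and of its other probes 1 gave -0.22 (adjusted p = 0.235), with overlap. Phlda2 differed by 0.40 ± 0.16 (adjusted p = 0.192) at levels where 1 of 4 G20 and 2 of 4 NC spots were well above background. Osbpl5 differed by 0.11 ± 0.08, Tssc4 by -0.02 ± 0.07 and Slc22a18 by -0.06 ± 0.16, with median 0.11 over the 7 members and 0.03 over all genes.

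**Figure D4:**
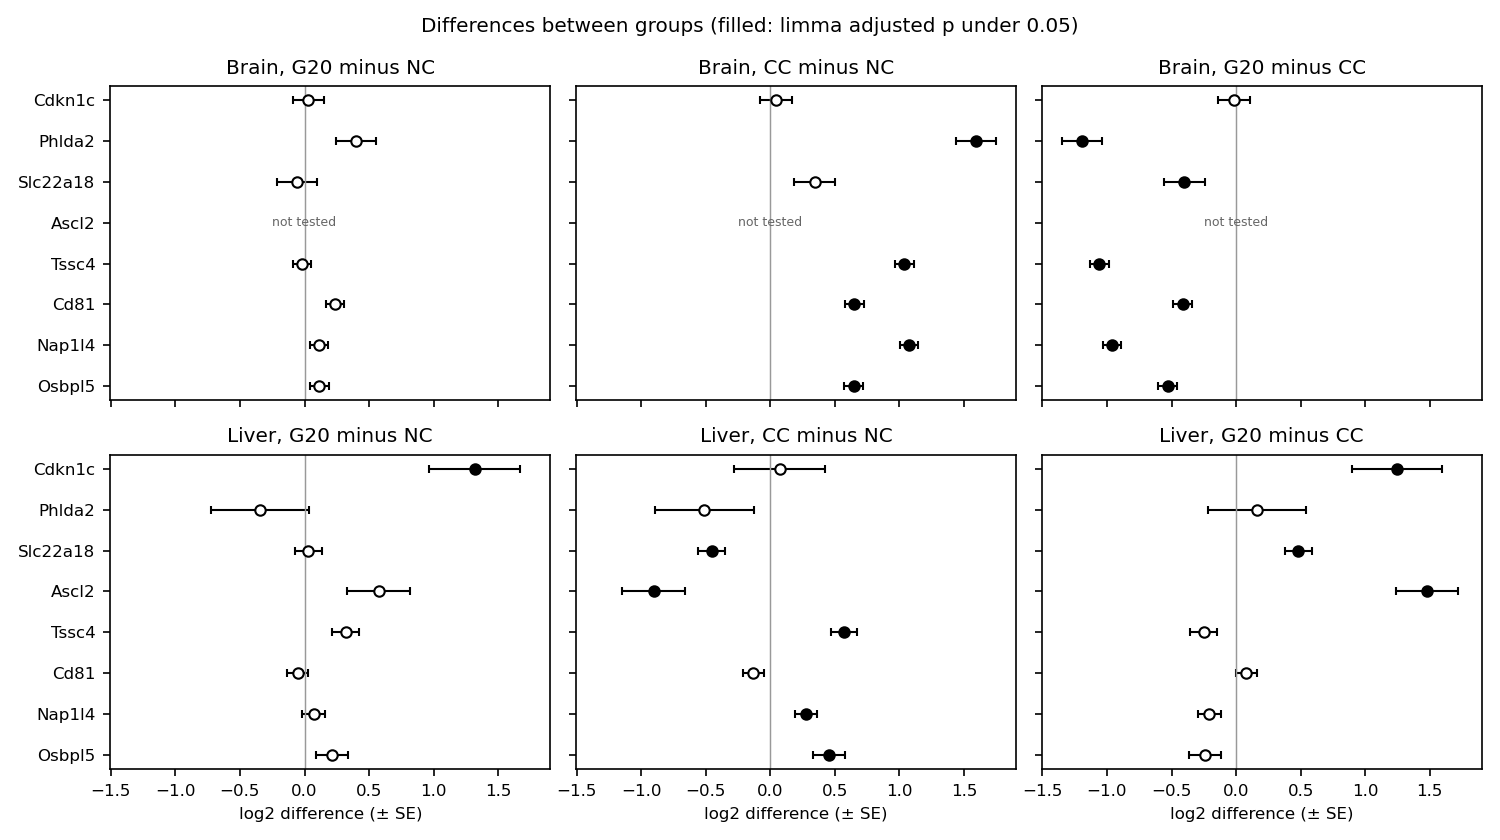
Log2 differences of the 8 members (rows) between G20 and NC, CC and NC, and G20 and CC, in brain and liver, with bars of 1 SE from limma; filled points passed an adjusted p of 0.05 over all genes. Cdkn1c in liver is the 1 filled point between G20 and NC, and the CC comparisons hold most of the filled points.

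The comparison of cumulus-cell clones with controls asks the same of CC, but the scan session differs with the group there and the effects cannot be told apart. In brain, 5 of 7 members were higher in CC than in NC, where 69.1% of all genes passed in either direction and 40.9% were higher. This count takes Nap1l4 on the probe used in the fits, and its other probes gave the opposite sign. It also takes Phlda2, which passed the filter in brain only through CC, the group where it was high. The astroglia and progenitor sum was 6.36 to 6.66 in CC brains and the macrophage sum 1.32 to 1.52, above the NC brains given above, and their part in these differences was not tested. Tssc4 read 3.29, 3.27, 3.102 and 3.19 in CC brains, against 2.12, 2.18, 2.20 and 2.20 in NC brains, without overlap (1.04 ± 0.07, adjusted p = 2.81e-07). Cd81 read 5.17, 5.01, 5.05 and 5.18 in CC brains, against the NC values above, and was higher by 0.65 ± 0.07 (adjusted p = 8.51e-06). Osbpl5 was higher by 0.64 ± 0.08 (adjusted p = 1.22e-05) without overlap. Phlda2 was higher by 1.59 ± 0.16 (adjusted p = 2.71e-06), from 4 of 4 CC spots but 2 of 4 NC spots well above background. The filter favoured this call, since the probe was kept through CC alone. The difference was -0.02 in the authors' own processed values, which keep 2 of 4 NC arrays for this probe. Cdkn1c did not pass (0.04 ± 0.12, adjusted p = 0.766), nor did Slc22a18 (0.34 ± 0.16, adjusted p = 0.0712), although its groups did not overlap. The Slc22a18 call was gained in 4 of 17 alternatives. These were median scaling (adjusted p = 0.0137), quantile normalization (0.0163), only the 2 groups compared (0.0265) and the replicate block (0.0371).

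Nap1l4 showed that the choice of probe decided its direction between CC and NC. The probe used in the fits read 5.37, 5.38, 5.29 and 5.20 in CC brains and was higher by 1.07 ± 0.07 (adjusted p = 1.43e-07), without overlap with NC. The other Nap1l4 probes were lower in CC brain, at -0.33 (adjusted p = 0.00575) and -1.06 (adjusted p = 5.64e-06). In liver the 3 probes gave 0.28, 0.11 and -0.74, so no direction is read for the gene in CC.

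In liver, 3 members were higher and 2 lower in CC than in NC, where 40.3% of all genes passed, 18.8% higher and 21.5% lower. Beside these, the erythroid sum was 6.86 to 9.36 in CC and 9.51 to 9.74 in NC livers, and the hepatocyte sum 9.04 to 9.33 in CC and 9.98 to 10.2 in NC livers. CC replicate 1 also had the highest neuron sum, 1.10, and the highest astroglia and progenitor sum, 1.19, of the CC livers. Their part in the members' differences was not tested. Tssc4 read 3.37, 3.24, 2.97 and 2.996 in CC livers, above all 4 NC livers (0.57 ± 0.10, adjusted p = 0.00110), and Osbpl5 was higher by 0.45 ± 0.12 (adjusted p = 0.0129). Nap1l4 was higher by 0.28 ± 0.09 on the probe used (adjusted p = 0.0258), a call lost without NC replicate 2 (adjusted p = 0.0789), NC replicate 4 (0.0554) or CC replicate 2 (0.0713). Slc22a18 was lower in CC by every array on the probe used (-0.45 ± 0.10, adjusted p = 0.00504), but its other, much dimmer probe gave 0.16 (adjusted p = 0.545). Ascl2 read -4.67, -5.40, -5.07 and -4.53 in CC livers, with 1 of 4 spots well above background, and was lower than in NC livers (-0.90 ± 0.24, adjusted p = 0.0117), with overlap. Ascl2 passed the filter in liver only through G20. In the authors' processed values 2 members passed in liver, Cdkn1c and Tssc4 (0.37, adjusted p = 0.0440), and in brain 0 passed, with Tssc4 at 0.06 and Cd81 at 0.18, where limma called 128 of all genes. Cd81 did not pass (-0.13 ± 0.08, adjusted p = 0.228), although its 4 CC livers lay below its 4 NC livers.

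The CC effect differed between brain and liver for 5 of 7 members, with the larger value in brain on the probes used in the fits, where 53.1% of genes passed that test and 34.1% passed with the larger value in brain. Nap1l4's other probes gave -0.44 (adjusted p = 0.00518) and -0.32, so no direction is read for it. Slc22a18's other, much dimmer probe gave 0.04 (adjusted p = 0.908), so its difference rests on the probe used. The differences were 2.10 ± 0.44 for Phlda2, 0.80 ± 0.11 for Nap1l4, 0.80 ± 0.20 for Slc22a18, 0.78 ± 0.11 for Cd81 and 0.47 ± 0.12 for Tssc4. For Cdkn1c it was -0.03 (adjusted p = 0.959). Phlda2 passed the filter in brain only through CC, where it was high. Its value takes in NC brains with 2 of 4 spots well above background. With normexp background correction it was 1.86 (adjusted p = 0.0993), no longer called, so again no order among the groups is read for Phlda2. In the authors' processed values Nap1l4, Slc22a18, Cd81 and Tssc4 did not pass this test, and Cdkn1c was the 1 called member (-1.26, adjusted p = 0.0486).

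Between the 2 kinds of clone, 6 of 7 members were lower in G20 than in CC brain on the probes used, where 67.4% of genes passed and 38.3% were lower. Nap1l4 is among the 6, and its other probes gave 0.12 (adjusted p = 0.265) and 1.07 (adjusted p = 6.18e-06). G20 shares the CC arrays with the comparison above, so these values mirror it: Tssc4 -1.06, Nap1l4 -0.96, Osbpl5 -0.53, Cd81 -0.41, Phlda2 -1.20 and Slc22a18 -0.40 (adjusted p = 0.0398, with overlap). The Slc22a18 call was lost without CC replicate 1, 2 or 3 or G20 replicate 2 or 3 (adjusted p 0.0551 to 0.113). Phlda2, also among the 6, passed the filter only through CC, the group where it was high. For it, 1 of 4 G20 spots was well above background, and normexp background correction gave -0.82 (adjusted p = 0.416). With quantile normalization Cd81 was at 0.017 (adjusted p = 0.828). Cdkn1c again did not pass (-0.01, adjusted p = 0.927). In liver 3 of 8 were higher in G20, where 44.5% of genes passed and 25.1% were higher. In the authors' processed values 0 members passed in either tissue, where limma called 228 genes in brain and 32 in liver. The 3 were Cdkn1c, Slc22a18 (0.48 ± 0.10, adjusted p = 0.00311, but -0.01 on its dimmer probe) and Ascl2 (1.48 ± 0.24, adjusted p = 0.000502, with 4 of 4 G20 and 1 of 4 CC spots well above background, but -0.71 with normexp background correction). Ascl2 passed the filter in liver only through G20, the group where it was high, so the filter favoured its place in this count. Tssc4 and Nap1l4 missed the threshold (-0.25, adjusted p = 0.0647, and -0.21, adjusted p = 0.0754). Tssc4 passed without CC replicate 3 (-0.31, adjusted p = 0.0389) or CC replicate 4 (-0.30, adjusted p = 0.0461), and Nap1l4 without G20 replicate 1 (-0.26, adjusted p = 0.0348).

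Around the members, 45 probes lie between H19 and Dhcr7 (mm8 chr7:142385254-143657797), and 34 were tested in each tissue. Between G20 and NC, 0 of 34 were called in brain and 2 in liver, against 1.42% and 6.58% of all probes. The liver calls were Cdkn1c, higher, and Kcnq1, lower. Kcnq1, a potassium channel whose gene holds the imprinting control region of the domain, was read by a plus-strand probe at mm8 chr7:143236225-143236284. It read -2.54, -2.60, -2.61 and -2.81 in G20 livers, -1.99, -1.88, -1.70 and -1.92 in CC livers, and -2.20, -2.16, -2.28 and -2.10 in NC livers. The 3 groups did not overlap: G20 was lower than NC by -0.46 ± 0.09 (adjusted p = 0.0120) and CC was higher than NC by 0.31 ± 0.09 (adjusted p = 0.0151). In brain the G20 difference was -0.01, and the tissues' difference was 0.45 (adjusted p = 0.0205, lost in 3 of 23 alternatives). The liver call was lost in 1 of 16 alternatives, the mean of the gene's probes, which takes in a minus-strand probe that the file also names Kcnq1.

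No probe carried the name Kcnq1ot1. Of 8 probes between Trpm5 and Cdkn1c, 7 read the minus strand, the strand of that RNA, and 3 of these 7 did not pass the filter in either tissue. None was called between G20 and NC: the 4 tested in brain differed by 0.06, 0.10, -0.08 and 0.08, and the 3 tested in liver by -0.15, 0.15 and -0.06. Between CC and NC brains, which differ in scan session, 3 of the 4 tested in brain were called, beside 68.3% of all probes. AK142427 (-1.01) and AK039482 (-0.57) were lower and NAP038329-1 (0.50) higher. Which transcript each reads was not tested.

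**Figure D5:**
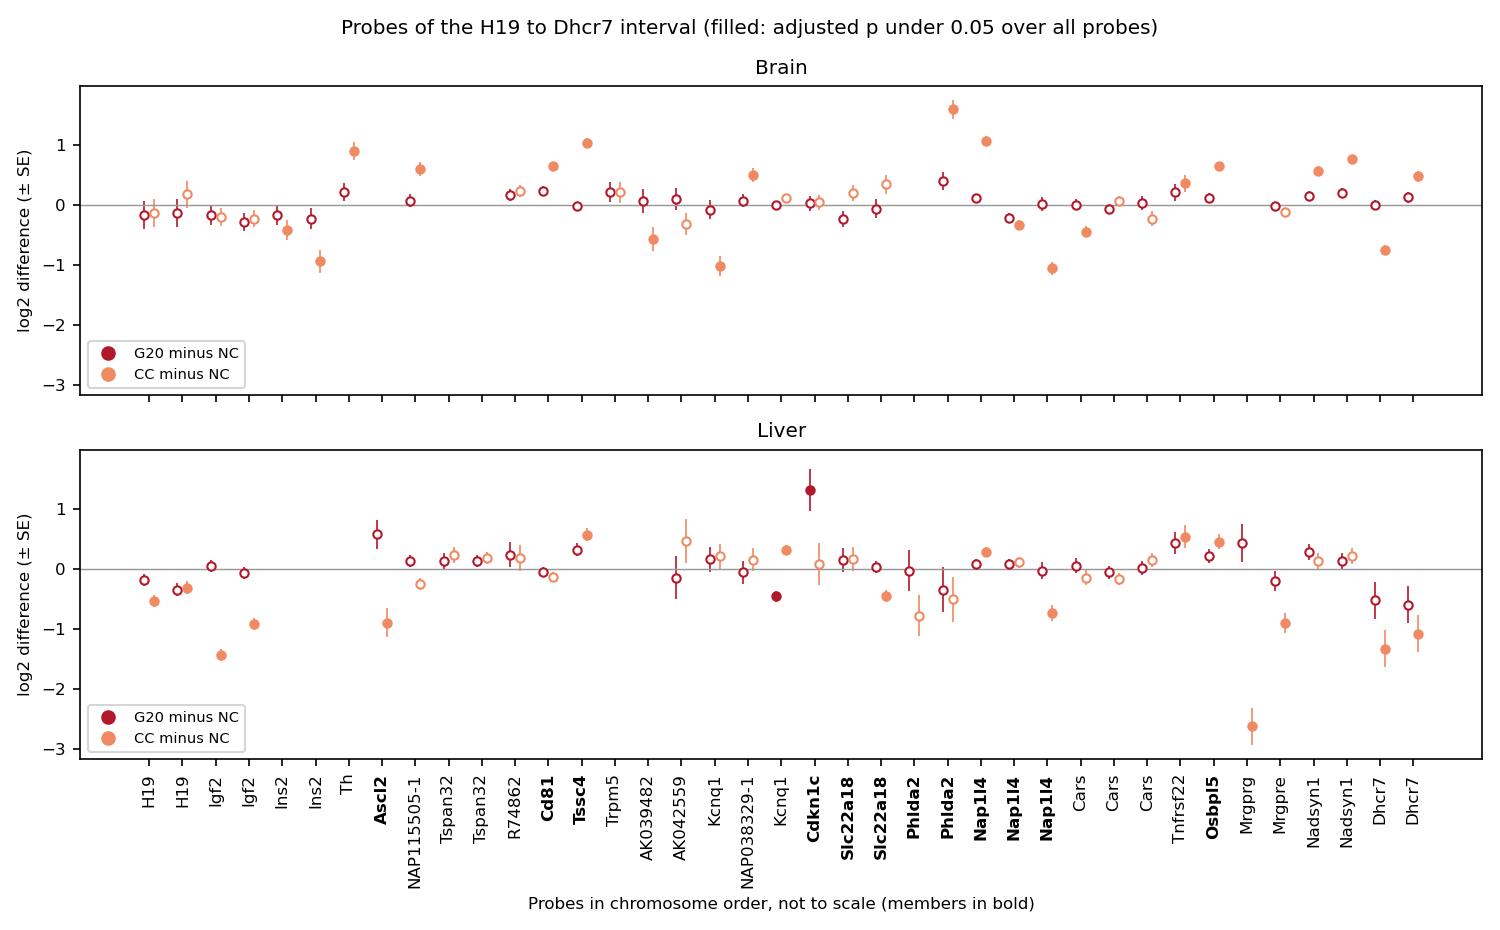
Log2 differences (vertical axis, bars 1 SE) of G20 and of CC from NC for the tested probes between H19 and Dhcr7, in chromosome order (horizontal axis), for brain and liver; filled points passed an adjusted p of 0.05 over all probes. For G20 the liver panel has 2 filled points, Cdkn1c above 0 and Kcnq1 below it, and the brain panel has none.

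Of the other 16 domain genes listed, 15 were on the array, 11 were tested in brain and 10 in liver. Igf2, the paternally expressed growth factor next to the domain, did not pass between G20 and NC in liver (0.04, adjusted p = 0.83), nor did H19, its maternally expressed non-coding neighbour (-0.19, adjusted p = 0.295). Between CC and NC in liver both were lower, Igf2 by -1.44 ± 0.10 (adjusted p = 9.66e-07) and H19 by -0.54 ± 0.10 (adjusted p = 0.00172). Neither passed in brain. Th, Tspan32, Trpm5 and Cars did not pass between G20 and NC where tested, with Th at 0.22 and Trpm5 at 0.21 in brain and Cars at -0.07 in brain and -0.06 in liver. In all, CC brains had 4 of the 11 higher and 1 lower than NC brains, and CC livers had 2 of 10 higher and 5 lower than NC livers, beside the 69.1% and 40.3% of all genes called.

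Cdkn1c belongs to the cyclin-dependent kinase inhibitors, and 3 of the other 5 tested in liver were called between G20 and NC, 2 of them higher, beside 7.07% of all genes called and 4.18% higher. Cdkn1b (p27), its close relative, was higher by 0.82 ± 0.12 (adjusted p = 0.00324), and Cdkn3, a phosphatase that acts on these kinases, by 0.71 ± 0.19 (adjusted p = 0.0473, lost in 12 of 16 alternatives). Cdkn1a (p21), the p53-induced relative, was lower, at -0.73 ± 0.16 (adjusted p = 0.0175, lost in 4 of 16). In brain Cdkn3 alone of 6 passed (0.82 ± 0.14, adjusted p = 0.0158, lost in 3 of 16), beside 1.75% of all genes. Of 12 proliferation genes, such as Mki67 and Pcna, 0 passed in either tissue by limma, and 1 in each had an unadjusted p under 0.05. Over all genes, 3978 of 16754 in liver and 3630 of 18803 in brain had such an unadjusted p. Of the cyclins, kinases and Rb pathway, 2 of 18 passed in liver (Rbl2 0.44, Ccne2 -0.58, each lost in at least 12 of 16 alternatives) and 1 of 19 in brain (E2f2 0.65, lost in 13 of 16).

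Phlda3, a p53-induced relative of Phlda2, was lower in G20 liver, at -0.88 ± 0.16 (adjusted p = 0.00802), and its difference between tissues was 1.23 (adjusted p = 0.00103). Among the members' 23 paralogs tested in liver, Osbpl1a was the other call, higher by 0.55 (adjusted p = 0.0290, lost in 6 of 16 alternatives). Of 27 in brain Slc22a4 was called, higher by 0.39 (adjusted p = 0.0388, lost in 11 of 16). CD81's partners, such as Itgb1, had 0 of 8 called in each tissue, with 4 in brain and 0 in liver at an unadjusted p under 0.05. Genes of silencing and imprint maintenance had 0 of 14 called in liver (3 at an unadjusted p under 0.05) and 1 of 15 in brain. Over all genes, 3630 of 18803 in brain and 3978 of 16754 in liver had an unadjusted p under 0.05. The brain call was Ehmt1, a histone methyltransferase, higher by 0.36 (adjusted p = 0.0377, lost in 11 of 16 alternatives).

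Imprinted genes elsewhere were split by parental origin. Of maternally expressed ones, like most of this domain, 1 of 15 was called in liver and 1 of 19 in brain between G20 and NC, H13 in both, lower by -0.79 and -1.93. The H13 call was lost in 3 of 16 alternatives in liver and 9 of 16 in brain. Of paternally expressed ones, 6 of 17 were higher and 1 lower in liver, and 5 of 22 were higher in brain, beside 7.07% of all genes called in liver and 1.75% in brain. The 4 with the largest differences in liver were Snrpn, lower at -1.41 (lost in 11 of 16 alternatives), and Impact, Dlk1 and Plagl1, higher by 1.15, 1.11 and 1.07. In brain they were Zrsr1, Plagl1, Mcts2 and Impact, higher by 1.02, 0.99, 0.90 and 0.77. The liver Dlk1 call was lost in 7 of 16 alternatives and the brain Mcts2 call in 8 of 16. Those of Zrsr1, Plagl1 and Impact in brain were each lost in 1.

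Between CC and NC, the same lists gave these counts of higher and lower genes. Kinase inhibitors had 5 and 1 of 6 in brain and 2 and 1 of 5 in liver, and the cyclin, kinase and Rb list had 8 and 7 of 19 in brain and 2 and 2 of 18 in liver. Proliferation genes had 7 and 3 of 12 in brain and 0 and 2 of 12 in liver, and silencing genes 5 and 7 of 15 in brain and 3 and 3 of 14 in liver. Paralogs had 15 and 8 of 27 in brain and 4 and 3 of 23 in liver, and CD81 partners 3 and 3 of 8 in brain and 2 and 1 of 8 in liver. Maternally expressed genes had 5 and 2 of 19 in brain and 2 and 2 of 15 in liver, and paternally expressed ones 9 and 5 of 22 in brain and 1 and 3 of 17 in liver. These shares stand beside the 69.1% and 40.3% of all genes.

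Across the 12 liver arrays, which share groups, slides and sessions, Fam13a (Pearson r 0.956) and Ivd (0.937) were among the 3 genes whose levels followed Cdkn1c most closely. Those nearest to Phlda2 in liver were Capn6 (0.901), NAP094460-001 (0.895) and 4921507P07Rik (0.893). In brain, Cebpd (0.981), Pycard (0.980) and Cetn4 (0.979) were nearest to Phlda2, and Nid2 (0.881) and M77174 (0.876) were among the 3 nearest to Cdkn1c. These are descriptions over 12 arrays with no test.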

How the data were processed

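Single-colour Agilent arrays were scanned by the authors with Agilent Feature Extraction 9.5.3.1, per the submitters' processing notes. The deposited intensity per spot, processed signal and, for 1 alternative, mean and background signals, and the deposited 0 or 1 flags per spot were used, per the file headers. Control spots and outlier-flagged spots were left out, and the log2 of the processed signal minus the array's 75th percentile was taken, leaving 43379 spots and 41174 probes. Accessions named 23374 probes and the file's own name 17800. The authors' deposited series matrix holds unlogged intensity (column medians 223.6 to 489.5) that ran with the scanner signal of the same array (Pearson r 0.970 to 1 over 41174 probes) and is empty where a spot was not well above background. No source read here states its scaling. Its log2 served as an alternative, in which the fit drops empty arrays.

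A gene was its brightest probe, kept where at least 1 group had all 4 arrays well above background: 18803 genes in brain and 16755 in liver. The fits used limma 3.58.1 in R 4.3.3 over 12 arrays per tissue, or 24 across tissues, with Benjamini-Hochberg adjustment and a threshold of 0.05. The script was tested on simulated data. Precision is limited by 4 arrays per group.

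The members, the gene lists and the rule for naming genes were chosen with earlier results of these data known. The rule named all members, 8 other domain genes where measured, called genes of each list (at most 4 by size) and the 3 genes most alike, of which some are not reported here. Alternatives were the scaling, background correction, filter, probe choice, the authors' matrix, only the compared groups, each array left out and the replicate number as a block. Source names pair brain and liver of the same NC and CC pup, with same-number correlations of 0.0379 to 0.302 in NC and 0.168 to 0.228 in CC, and numbers do not pair pups across groups. Across tissues the block was the replicate number within each group, and it changed no member call there. In NC and CC that number stands for the pup, whereas the G20 labels do not say so.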

Additional observations from a re-analysis of the deposited data

Results flagged for a closer look

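Single arrays stood apart from the other 3 of their group in 5 of 65 combinations of member probe, tissue and group, where chance alone would give about 1 in 20. Liver NC replicate 4 stood high for Cdkn1c, at 6.11 against 4.28 to 4.36 on the other NC livers, and for Phlda2, at 2.55 against 0.736 to 0.930. Liver CC replicate 2 stood high for Phlda2, at 1.59 against 0.431 to 0.542. Liver G20 replicate 3 stood high for Cd81, at 5.84 against 5.54 to 5.58. Brain CC replicate 1 stood high for Slc22a18, at -3.11 against -3.49 to -3.42.

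On the probes used in the fits, the CC minus NC difference was unlike in brain and liver, by a test of the difference itself, for Phlda2 (2.10), Nap1l4 (0.80), Slc22a18 (0.80), Cd81 (0.78) and Tssc4 (0.47). Other probes gave 0.04 for Slc22a18 and -0.44 and -0.32 for Nap1l4. Phlda2 was well above background on 2 of 4 NC brain arrays and passed the filter in brain only through CC. Both CC tissues came from a scan session without NC arrays, so the effect of the session and that of the group cannot be told apart.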

How the results depend on the processing

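Between G20 and NC, 0 members were called in brain under every alternative and 0 to 2 in liver. The liver count of 1 became 0 with median scaling, without the filter, with only the 2 groups fitted and with the replicate block, and 2 with normexp. With median scaling the liver G20 against CC count was 6. With normexp the counts were 2 for CC against NC and 2 for G20 against CC in brain, 0 and 1 in liver, 5 for NC brain against liver and 0 for the tissues' difference in CC effect. The mean of a gene's probes gave 3 for CC against NC in liver and 3 for that tissue difference. The authors' matrix gave 0 (brain) and 2 (liver) for CC against NC, 0 and 0 for G20 against CC, 5 for G20 brain against liver, and 1 and 1 for the tissues' differences in G20 and CC effect. Leaving out 1 array gave 0 to 1 (G20 against NC) and 4 to 5 (CC against NC) in liver, for G20 against CC 5 to 6 in brain and 3 to 4 in liver, and 0 to 1 for the tissues' difference in G20 effect. The replicate block ended the liver Cdkn1c call between G20 and NC, added Slc22a18 in CC against NC brain and changed no other member call.

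Directions turned as follows, and the cause was not tested. Median scaling gave CC brain minus liver -0.31 (Tssc4) and -0.052 (Nap1l4). Quantile normalization gave 0.017 for Cd81 (G20 minus CC brain), and brain minus liver 0.0078 (Tssc4), 0.15 (Cd81) and 0.71 (Nap1l4) in NC, 0.32 (Cd81) in CC, 0.36 (Cd81) and 0.67 (Nap1l4) in G20. Normexp gave Ascl2 -1.24 (G20 minus NC liver) and -0.71 (G20 minus CC liver), and NC brain minus liver 0.052 (Tssc4) and 0.27 (Nap1l4). The mean of Nap1l4's probes gave -0.11 (CC minus NC brain), 0.077 (G20 minus CC brain), -0.12 (CC minus NC liver), and brain minus liver 0.69 (NC) and 0.62 (G20). The authors' matrix gave Phlda2 -0.019 (CC minus NC brain, with 2 NC arrays), and in G20 minus CC brain 0.36 (Phlda2, with 1 G20 array), 0.014 (Nap1l4) and 0.055 (Osbpl5); Slc22a18 0.060 (CC minus NC) and -0.025 (G20 minus CC) in liver; brain minus liver 0.59 (Tssc4) and 0.54 (Nap1l4) in NC, 0.043 (Cd81) in CC, 0.20 (Tssc4) and 0.50 (Nap1l4) in G20; and the tissues' difference in CC effect -0.32 (Tssc4) and -0.061 (Nap1l4). Other probes, added after seeing the data, gave Nap1l4 -0.33 and -1.06 (CC minus NC brain), 0.12 and 1.07 (G20 minus CC brain), -0.74 (CC minus NC liver), 0.71 (G20 minus CC liver), brain minus liver 1.87 and 0.68 (NC) and 1.58 and 0.73 (G20), and -0.44 and -0.32 for the tissues' difference in CC effect; and Slc22a18 0.16 (CC minus NC) and -0.011 (G20 minus CC) in liver.

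Over all genes, the 329 called between G20 and NC in brain became 2 with normexp, 144 without the filter, 151 with the block, 155 with only 2 groups, and 131 to 539 without 1 array. The 1184 in liver became 5337 with normexp, 736 with the block and 597 to 1135 without 1 array. For CC against NC, the 12987 in brain became 5381 with normexp, 20695 without the filter and 128 in the matrix, and the 6754 in liver 220 with normexp and 1413 in the matrix. For G20 against CC, the 12677 in brain became 3718, 20160 and 228, and the 7456 in liver 2295, 14850 and 32, in the same order. The 17171 for CC brain against liver became 9835 with normexp. The tissues' difference moved to 94 with normexp and 975 without the filter (500 for G20), and to 1368 with normexp and 866 in the matrix (8036 for CC). The all-gene median of CC minus NC brain was 0.12, and 0.27 under median scaling; those of brain minus liver were -0.02 to -0.05, but -0.43 to -0.47 under median scaling and 0.66 to 0.70 in the matrix. Dim spots limit Ascl2 in both tissues and Phlda2 in brain.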
